A study of Mus musculus with 2 samples.

Results

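The activin, TGF-beta and BMP signalling genes described here are a set of 10, namely Inhba, Acvr1, Tgfbr1, Smad3, Smad7, Twsg1, Tgif1, Id1, Id2 and Id3. A FOS peak was taken as belonging to one of them if that gene was its nearest gene, by transcription start site (TSS), or if the peak lay inside the gene. By this rule 8 of the 10 genes held 19 of the 2374 peaks. The peaks came from mouse granulosa cells, the somatic cells around the oocyte, taken by follicle puncture from wild-type females aged 25 days that had been primed with PMSG, which drives follicle growth, and given hCG 3 h before collection to start ovulation. The series has 2 libraries of such cells, 1 from chromatin precipitated with a FOS antibody and 1 whose label names no antibody. Only the peak list of the FOS library was analysed here, so there is no replicate, no unstimulated sample and no read count, and the depth is unknown. All values below describe where peaks lie and how they rank in this one list, with no error between animals and no test.

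Ligands of the TGF-beta superfamily bind a pair of type II and type I receptors, the type I receptor phosphorylates a receptor-regulated SMAD, and this SMAD moves to the nucleus with the common SMAD4. TGF-beta and activin act mainly through SMAD2 and SMAD3, and BMPs through SMAD1, SMAD5 and SMAD9. Inhibitory SMADs, extracellular binding proteins and nuclear corepressors hold the signal back. In the follicle, activin and oocyte ligands such as GDF9 and BMP15 are known to steer granulosa cell growth and cumulus expansion. FOS pairs with a JUN protein to form AP-1, a factor that is known to bind enhancers together with SMAD3 in several cell types.

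FOS peaks at these genes often ranked high, and most lay far from a TSS. Their median distance to the TSS was 35.9 kb (95% interval of the median 10.6 to 97.5 kb), against 18.2 kb over all peaks, which that interval holds. Within 10 kb of the TSS lay 3 of the 19 (15.8%, exact 95% interval 3.38 to 39.6%), against 910 of 2374 (38.3%), which that interval holds too. None of the 19 peaks was in the authors' promoter class (exact 95% interval 0 to 17.6%), against 360 of all 2374 peaks (15.2%, interval 13.7 to 16.7%), a share that the interval of the set also holds. Of the 19, 13 were intronic and 6 intergenic. The peak score is the authors' own value for each peak and is used here to rank peaks within this list. It had a median of 107 over the 19 peaks (95% interval of the median 57 to 192), against 67 over all peaks, which that interval also holds. In the top 10% of the list, at scores of 151 or more, were 7 of the 19 peaks (36.8%, interval 16.3 to 61.6%), against 240 of all peaks (10.1%). These 7 peaks belonged to Twsg1, Acvr1, Smad3, Id3, Tgfbr1, which had both of its peaks there, and Smad7. The intervals cover counting error only, and several peaks share a gene, so the peaks are not independent. The genes were also chosen with earlier results of this list known, so these scores and distances are descriptions. Without Twsg1 the median score of the other 18 peaks was 99.

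**Figure D1:**
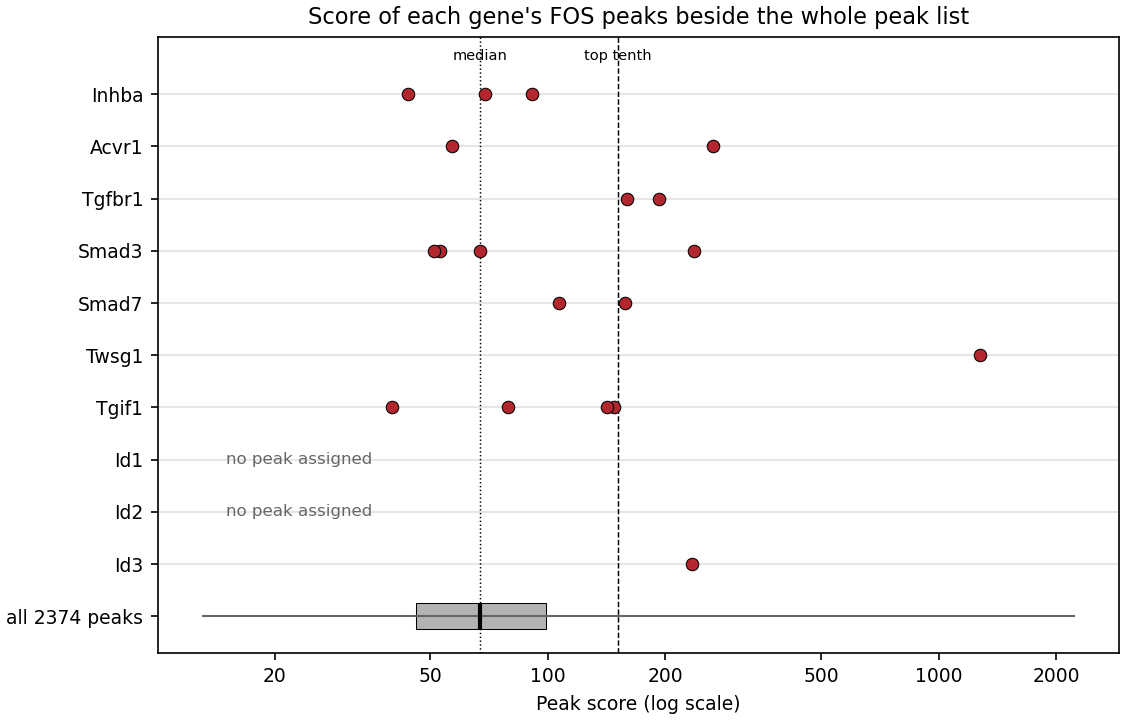
Peak score (log scale) of each FOS peak of the 10 genes, 1 red point a peak, above the whole list of 2374 peaks, whose box spans the quartiles, whose thick bar is the median of 67 and whose line runs over all scores. The dotted line is the median and the dashed line the lower edge of the top 10%, 151; Twsg1 stands apart at 1277, and Id1 and Id2 have no point.

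The set was drawn up with earlier results of this peak list known, so its share of genes with a peak is a description. A peak was assigned to 8 of the 10 genes, against 8.68% of the 21887 protein-coding genes. All 8 were also the nearest gene of a peak, as were 7.58% of protein-coding genes, and 5 of the 10 hosted a peak, against 5.65%. Counting only peaks at or above the median score left 8 of the 10, against 4.74%, and at or above the upper quartile of 99 left 7, against 2.54%. Within 100 kb of the TSS 8 genes kept a peak, against 7.72%. Within 10 kb of the TSS only Inhba, Smad7 and Tgif1 did, 3 of 10 against 3.8%. A peak within 50 kb of the gene, whichever gene it was assigned to, was found for 9 of the 10, against 18.2%. Having 2 or more peaks was common in the set, with 6 of the 10 genes against 1.45% of protein-coding genes. Among genes with a peak it was 6 of 8, against 317 of 1900 (16.7%). The genes also lie in longer stretches than most. A stretch here runs between the nearest protein-coding genes on each side that do not overlap the gene, and includes the gene's own span. It had a median of 155 kb for the 10 genes, against 77.8 kb for all, and 9 of the 10 lay above that value. The part of this spacing in the counts of nearest genes was not tested.

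**Figure D2:**
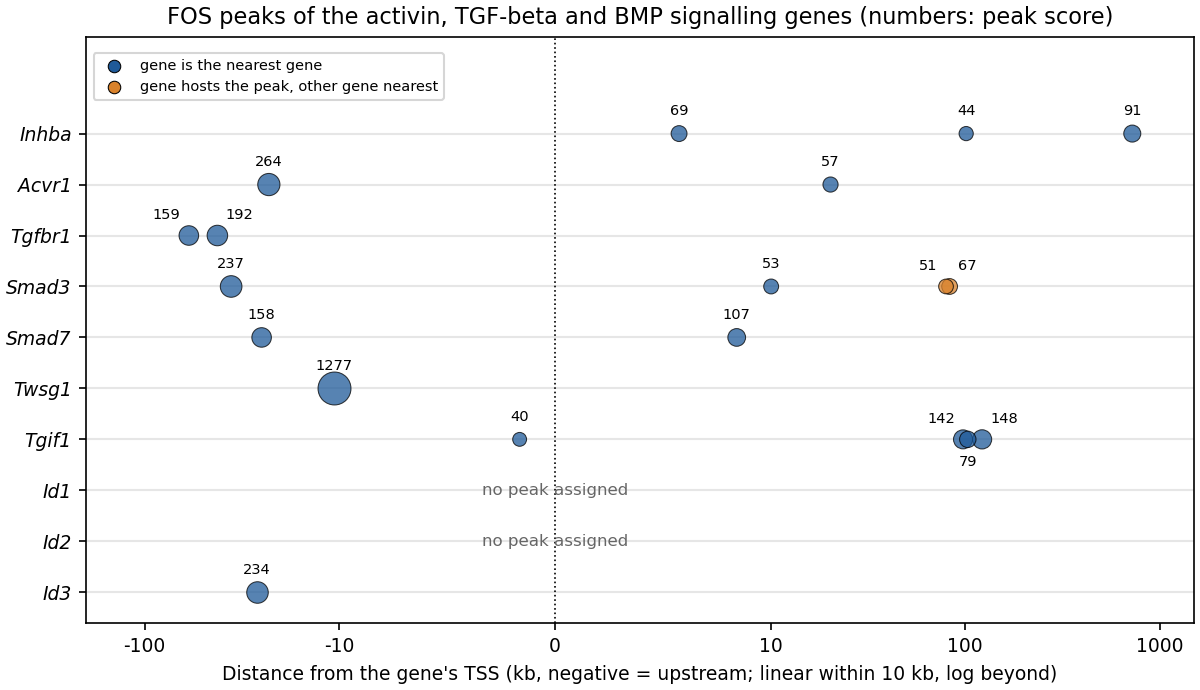
Position of each FOS peak relative to the TSS of its gene (kb, negative is upstream, linear within 10 kb and logarithmic beyond), with point size and printed number giving the peak score. The 6 genes Acvr1, Tgfbr1, Smad3, Smad7, Twsg1 and Id3 have their best peak 10.6 to 42.3 kb upstream, and the 2 orange points are peaks inside Smad3 that the file assigns to Aagab.

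The best peaks of 6 genes lay upstream, at distances of 10.6 to 42.3 kb. In Twsg1, Acvr1, Smad7, Id3, Smad3 and Tgfbr1, the peak with the highest score lay upstream of the TSS, at 10.6, 23.0, 25.0, 26.6, 35.9 and 42.3 kb. The window of 10 to 50 kb upstream was chosen after these values were seen, so its counts in the set are a description. It held the best peak of 6 of the 8 covered genes, against 205 of the 1900 covered protein-coding genes (10.8%). Over single peaks it held 6 of 19 (31.6%, exact 95% interval 12.6 to 56.6%), against 340 of 2374 (14.3%). The interval of the set also holds the share of the whole list. Where a gene had peaks both inside and outside its span, its best outer peak was set against its best inner one. The best outer peak had the higher score in 5 of 5 such genes of the set (Inhba, Acvr1, Smad3, Smad7 and Tgif1), against 58 of 114 such genes in the whole list (50.9%). For Inhba this rests on a peak 724 kb from the TSS, since its other outer peak scored 44, below the inner 69. The best outer peaks of Acvr1 and Tgif1 lay inside the neighbouring genes Upp2 and Dlgap1. The genes were chosen with earlier results known, so this count is a description too.

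Inhba encodes the beta A chain that forms activin A as a dimer and inhibin A with the alpha chain. It had 3 peaks, all of middling or low rank. The peak inside the gene, in intron 2 of 2, lay at chromosome 13, 16020090 to 16020357 (mm10), 5.75 kb downstream of the TSS used in the file, and scored 69 (rank 1125). Downstream of the gene lay a peak of score 44, 101 kb from the TSS, and a peak of score 91, 724 kb from it. The last is the highest of the 3, at rank 706, yet it is the least tied to Inhba by position. It lies in a stretch of 1130 kb without another protein-coding gene, and the nearer gene body on its other side is that of Sugct, 119 kb away. No protein-coding gene lay between either downstream peak and Inhba. The RefSeq start of Inhba in the promoter table lies farther upstream than the one used in the file, so the intronic peak is 8.37 kb from it.

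Both type I receptors of the set had a peak in the top 10% of the list, and in both that peak lay inside the neighbouring gene. Acvr1 encodes ALK2, a type I receptor for BMPs. Its upstream peak, at chromosome 2, 58589580 to 58590016, scored 264 (rank 45) and lay 23.0 kb from the Acvr1 TSS in intron 1 of 7 of Upp2, a uridine phosphorylase gene that runs in the opposite direction. The start of Upp2 in the RefSeq promoter table is about as near, at 22.5 kb, so position does not separate the genes. The other peak, in intron 1 of 11 of Acvr1 itself, scored 57 (rank 1449) and lay 20.3 kb from its TSS and 20.8 kb from that of Upp2.

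Tgfbr1 encodes ALK5, the type I receptor for TGF-beta that GDF9 also uses. It had no peak inside the gene, and both of its peaks lay within Col15a1, which encodes a collagen chain. The peak of score 192 (rank 104), at chromosome 4, 47310798 to 47311277, was in the last intron of Col15a1, 42.3 kb upstream of Tgfbr1. The peak of score 159 (rank 196) was in intron 28 of 39 of Col15a1, 59.3 kb upstream. They lay 17.0 kb apart. The start of Col15a1 was farther from them than that of Tgfbr1, at 103 and 86.0 kb. The RefSeq table also places the start of a long noncoding RNA gene, Gm52732, 7.87 and 9.14 kb from them.

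**Figure D3:**
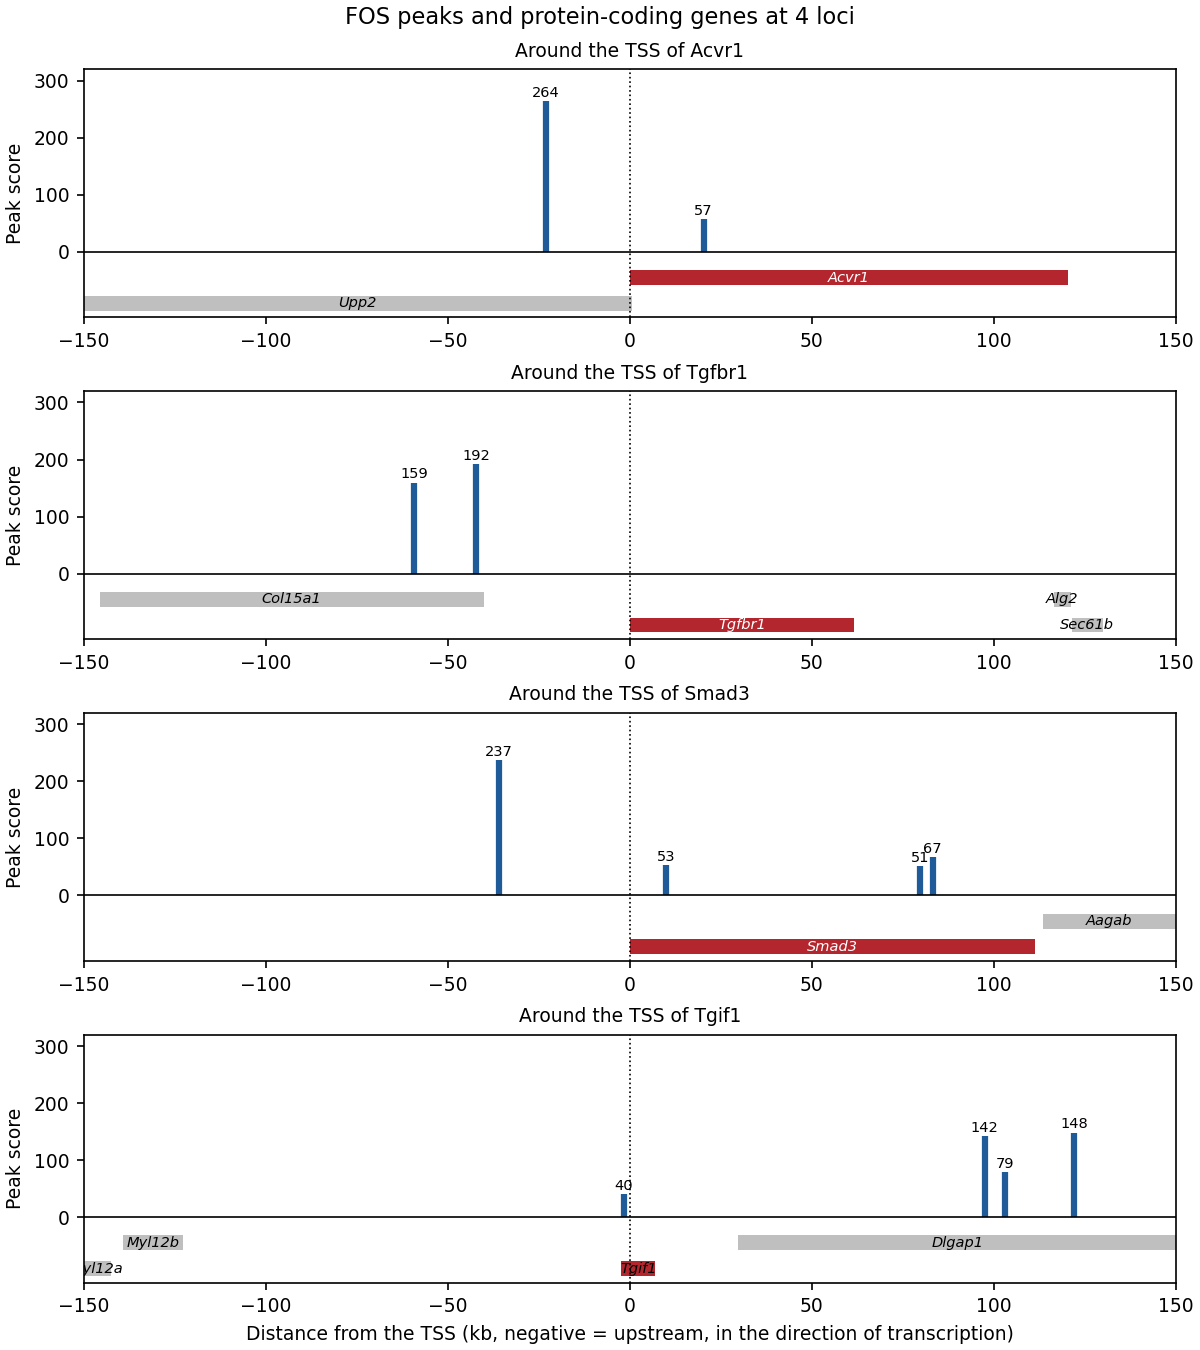
FOS peaks (blue bars, height is the peak score) within 150 kb of the TSS of Acvr1, Tgfbr1, Smad3 and Tgif1, with the spans of protein-coding genes drawn below each axis (red for the named gene, grey for others) and distance in kb along the direction of transcription. The highest bars of Acvr1 and Tgfbr1 stand over the neighbours Upp2 and Col15a1, that of Smad3 over no protein-coding gene, and the 3 high bars of Tgif1 over Dlgap1.

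The SMAD genes of the set each had a strong peak upstream and weaker ones inside. Smad3 encodes the receptor-regulated SMAD of activin and TGF-beta signalling. Its intergenic peak, at chromosome 9, 63793686 to 63794133, scored 237 (rank 58) and lay 35.9 kb upstream of the TSS. The start of the long noncoding RNA gene Gm39359 lay 1.77 kb from this peak. Inside Smad3 there were 3 peaks, all in intron 1 of 8. They scored 53, 51 and 67 and lay 10033 bp, 79.7 kb and 83.1 kb downstream of the TSS. The file assigns the last pair, 3.47 kb apart, to Aagab, an adaptin-binding protein gene whose TSS is 75.7 and 72.2 kb away. The start of the long noncoding RNA gene Gm51710 was nearer to them, at 53.3 and 56.7 kb. With this pair Smad3 had 4 peaks, as many as Tgif1 and more than any other gene of the set.

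Smad7 encodes an inhibitory SMAD that blocks type I receptors and is itself induced by TGF-beta. Of its pair of peaks, the intergenic one scored 158 (rank 201) at a distance of 25.0 kb upstream of the TSS. The other, in intron 2 of 3, scored 107 (rank 496) and was 8.42 kb downstream. The intronic peak had the highest score of the 7 peaks that lay inside a gene of the set. Dym, 55.2 kb from the upstream peak, was the next gene body. Smad6, the other inhibitory SMAD gene, was not assigned a peak.

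The highest score of the set, and the second highest of the whole list, was at Twsg1. The gene encodes twisted gastrulation, a secreted protein that binds BMPs and chordin and can either aid or block BMP signalling. Its intergenic peak, at chromosome 17, 65961335 to 65962259, scored 1277 and was 925 bp wide, against a median width of 342 bp for all peaks. The next lower score in the list was 808, and the only higher one, 2234, was at a peak nearest to Gmpr. The peak lay 10.6 kb upstream of the Twsg1 TSS. Its nearest gene body was that of Ankrd12, 3.44 kb away, whose start lies 115 kb off. No other peak lay within 100 kb of Twsg1. With reads and a control library not analysed here, the peak was not set against a background. The RefSeq promoter window of Twsg1, which starts 250 bases before the TSS and ends 50 bases after it, is shown for the gene with the highest peak. It is chr17:65951138-65951437 on the minus strand of GRCm38.p6 (the build called mm10 in the notes). Capitals mark CAGAC, the short SMAD motif, on either strand. No base of the window is under a peak.
Twsg1: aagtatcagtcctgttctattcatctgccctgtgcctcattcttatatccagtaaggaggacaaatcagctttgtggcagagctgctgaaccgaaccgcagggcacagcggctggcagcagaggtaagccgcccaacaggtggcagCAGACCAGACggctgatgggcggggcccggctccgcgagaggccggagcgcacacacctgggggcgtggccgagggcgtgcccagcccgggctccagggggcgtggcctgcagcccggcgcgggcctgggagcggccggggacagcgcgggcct

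Tgif1 encodes a homeodomain corepressor that binds SMAD2 and SMAD3. It had 4 peaks, 3 of them grouped downstream of the gene. Those 3 lay in intron 6 of 11 of Dlgap1, a postsynaptic scaffold gene, at 97.5, 103 and 122 kb from the TSS, and scored 142, 79 and 148. The first pair lay 5.65 kb apart, and the last was 19.0 kb farther. The start of Dlgap1 was 192, 186 and 167 kb from them, and that of the long noncoding RNA gene Gm36746 was 36.1, 30.4 and 11.4 kb away. The fourth peak, at chromosome 17, 70852671 to 70853021, scored 40 (rank 1937), the lowest of the 19. The file places it in intron 1 of 2 of Tgif1 and 1636 bp upstream of the start of another transcript. RefSeq lists 5 Tgif1 starts, and the peak centre lay 686 bp downstream of the most upstream of them, the closest approach of a peak to a start in the set. The long noncoding RNA gene Gm36856, on the opposite strand, starts 694 bp from the peak centre. The window of the most upstream Tgif1 start is shown because a peak lies only 462 bp from it. It is chr17:70853483-70853782 on the minus strand, and capitals again mark CAGAC.
Tgif1: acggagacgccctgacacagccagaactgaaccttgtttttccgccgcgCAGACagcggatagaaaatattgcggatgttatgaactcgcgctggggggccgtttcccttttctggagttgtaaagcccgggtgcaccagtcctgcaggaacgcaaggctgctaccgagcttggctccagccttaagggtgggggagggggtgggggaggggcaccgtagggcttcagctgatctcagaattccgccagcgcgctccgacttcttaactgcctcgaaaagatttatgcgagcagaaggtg

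The ID genes differed. They encode small proteins that bind basic helix-loop-helix factors and block their binding to DNA, and they are classical targets of BMP and SMAD1 signalling. Id3 had an intergenic peak of score 234 (rank 59) at chromosome 4, 136117025 to 136117493, 26.6 kb upstream of its TSS. No other gene start in the RefSeq table was closer, and the next, that of the cell cycle factor E2f2, was 55.0 kb away. Id1 and Id2 had no peak. The nearest peak to Id1 was 44.4 kb from the gene, scored 26 (rank 2267), lay within H13 and was assigned to Mcts2. The nearest to Id2 was 250 kb away, scored 38 (rank 1998) and lay in Mboat2. With no read counts, a weaker signal at Id1 or Id2 below the authors' threshold was not detectable. The promoter windows of Id3, chr4:136143572-136143871 on the plus strand, and of Id2, chr12:25096043-25096342 on the minus strand, are shown side by side as those of a gene with a distal peak and of a gene without one. Capitals mark CAGAC and GGCGCC, a GC-rich SMAD site, on either strand.
Id3: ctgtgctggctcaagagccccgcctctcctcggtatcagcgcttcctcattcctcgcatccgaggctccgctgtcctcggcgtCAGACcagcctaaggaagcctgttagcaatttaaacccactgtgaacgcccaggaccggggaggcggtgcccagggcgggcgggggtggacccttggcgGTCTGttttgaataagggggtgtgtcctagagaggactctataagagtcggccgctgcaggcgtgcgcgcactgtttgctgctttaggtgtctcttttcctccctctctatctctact
Id2: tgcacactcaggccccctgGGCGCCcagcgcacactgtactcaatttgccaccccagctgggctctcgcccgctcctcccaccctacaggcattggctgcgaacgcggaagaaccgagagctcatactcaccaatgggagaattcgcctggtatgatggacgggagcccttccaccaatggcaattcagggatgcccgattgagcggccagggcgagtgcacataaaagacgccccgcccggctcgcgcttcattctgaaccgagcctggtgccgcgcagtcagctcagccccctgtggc

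Motif counts in the promoter windows were too few to set these genes apart from all windows. The RefSeq promoter table matched 8 of the 10 genes with 13 windows of 300 bases, 5 of them of Tgif1, and no window overlapped a FOS peak. Such an overlap was also rare in the whole table, at 1.11% of windows. TGANTCA, the AP-1 motif, which reads the same on both strands, was in 0 of the 13, against 7.81% of all 32851 windows and 29.6% of the 365 windows that a FOS peak overlapped. The cAMP response element TGACGTCA was in 0 of 13, against 1.79% of all windows and 8.22% of those with a peak. The palindromic SMAD box GTCTAGAC was in 0 of 13 and 0.213% of all windows. CAGAC was in 6 of the 13, windows of Tgfbr1, Id3, Twsg1 and Tgif1, against 49.6% of all windows. GGCGCC was in 2 of the 13, at Tgfbr1 and Id2, against 11.9%. Both strands were searched, and no motif contains another. The sequence under the 19 peaks was not read here, so these matches say nothing about the bases that FOS occupied.

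Peaks at the rest of the pathway were fewer per gene and had a lower median score than those of the 10 genes. Beside the 10 genes, 70 further pathway genes were listed by role, again with earlier results of this list known. Since both lists were drawn up in this way, the contrast between them is a description. A peak was assigned to 10 of these 70 (14.3%), against 8.68% of all protein-coding genes. At or above the upper quartile of the score only Map3k7 was left, 1 of 70 (1.43%), against 2.54%. The 10 of these 70 genes with a peak had 14 peaks. The median score of these 14 was 72.5, against 67 over all peaks, and scores ran between 17 and 166. For the 19 peaks of the 10 genes the median was 107, with a 95% interval of 57 to 192 that also holds 72.5. As at the other set, none was in the promoter class. The receptors had Bmpr1b, a BMP type I receptor, with intronic peaks of score 76 and 72, Tgfbr2, the type II receptor for TGF-beta, with a peak of score 67, and Acvr1b, the activin receptor ALK4, with an intronic peak of score 17 that the file assigns to Mir6962. Among ligands Bmp6 had peaks of score 78 and 36, both in intron 1 of 6. Smad2, which acts beside Smad3, had a score of 88 at an intergenic peak 18.1 kb upstream. Of the extracellular proteins, Bmper had peaks of score 77 and 62, and Ltbp3, which binds latent TGF-beta, had 1 of score 33 in exon 4 of 28. Map3k7, the kinase TAK1 of the branch without SMADs, had the highest scores, 166 and 98, at 216 and 111 kb from its TSS. Ccn2, a secreted matrix protein gene that TGF-beta induces and that the file calls Ctgf, had a score of 28 at a peak 41.1 kb upstream. No co-receptor (0 of 6), no membrane or intracellular inhibitor (0 of 6) and not Smad4 had a peak. With a peak at only 8.68% of all protein-coding genes, groups of 6 are too small to set these roles apart. The co-receptor genes Eng and Hjv had a peak 25.0 and 47.7 kb away that the file gives to a neighbour.

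**Figure D4:**
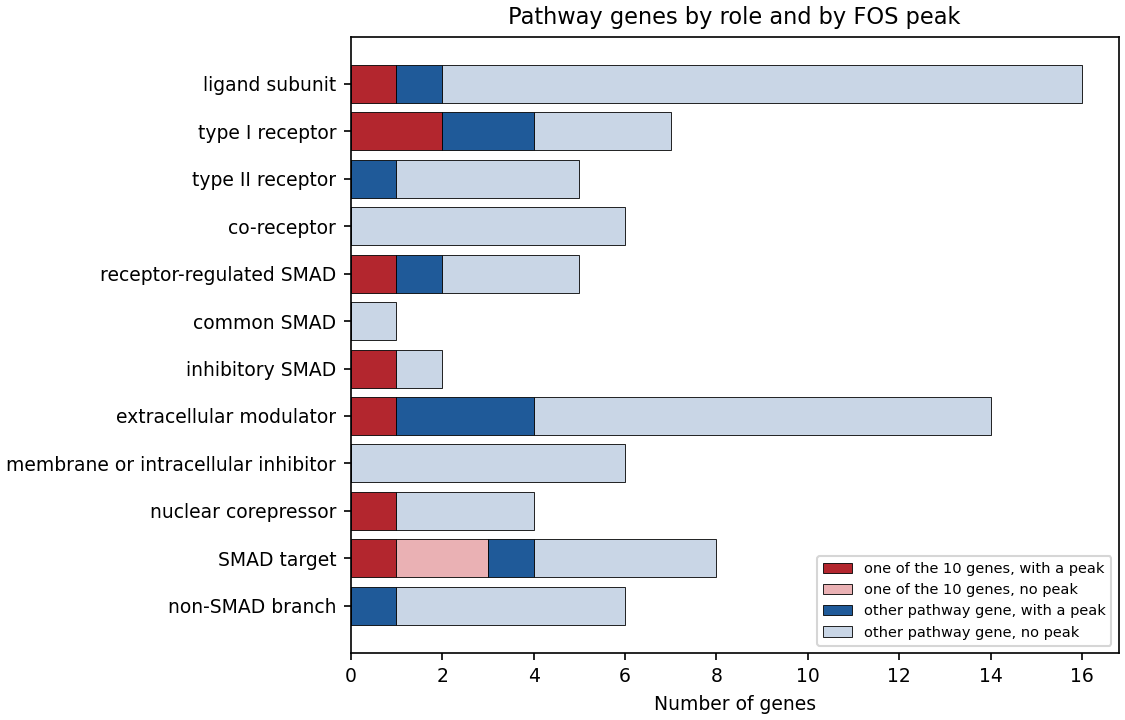
Number of pathway genes in each role, split into the 10 genes with and without a peak (red and pale red) and the other 70 with and without a peak (blue and pale blue). Type I receptors have 4 of 7 genes with a peak, of which 2 are among the 10 genes, chosen with earlier results known. Among the other type I receptors it is 2 of 5. Co-receptors and membrane or intracellular inhibitors have none of 6 each. Over all protein-coding genes the share is 8.68%, and each role holds too few genes to be set apart from it.

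Tgfbr2 was the exception in position. Its peak, at chromosome 9, 116175005 to 116175486 and rank 1168, was centred 118 bp downstream of the TSS in exon 1 of 8, so it sat on the start of the gene although the file classes it as exonic. It covered 173 of the 300 bases of the promoter window, chr9:116175314-116175613 on the minus strand. The window is shown because, among the 56 of the 80 pathway genes that the promoter table matched, no other gene had a window that a FOS peak overlapped. Capitals mark CAGAC on either strand, and TGANTCA was not in it.
Tgfbr2: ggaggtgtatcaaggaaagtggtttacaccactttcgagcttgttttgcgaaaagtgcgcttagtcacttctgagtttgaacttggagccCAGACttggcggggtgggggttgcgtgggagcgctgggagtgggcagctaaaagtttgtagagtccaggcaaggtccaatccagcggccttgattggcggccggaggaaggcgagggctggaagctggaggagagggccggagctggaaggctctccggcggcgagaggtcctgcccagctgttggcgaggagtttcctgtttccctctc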

How the data were processed

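Chromatin from mouse granulosa cells was precipitated with a FOS antibody and sequenced. Per the file headers, the authors ran the annotatePeaks program of HOMER on a narrowPeak file. The submitters' processing notes name MACS2 2.2.7.1, BWA, deepTools 3.5.1, Trim Galore and mm10. Which threshold, control and filters the peak calling used is not given in the sources used here. Peaks come from 1 library, not from a pool. The deposited peak score has no stated scale and was used only to rank and filter peaks within the list. Depth is unknown.

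A peak was assigned to its nearest gene and to the host gene in brackets. All 1965 nearest and 1314 host names matched a RefSeq gene table of GRCm38.p6, by accession, symbol or older symbol. The background was the 21887 protein-coding genes on the autosomes, X and Y.  Promoter windows and their sequences come from RefSeq, GRCm38.p6. Tied peaks take the best rank. Of 9 granulosa markers 5 had a peak, of 2 theca markers 1, and of 3 oocyte, 1 leukocyte and 1 endothelial marker none. A FOS peak is not expression, so this does not check the cell type.

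The 10 genes, the 70 other pathway genes, the motifs and the alternatives were chosen with earlier results of these data known. The named genes are all 10 genes with every peak, the nearest peak where a gene has none, each other pathway gene with a peak (1 is counted but not reported here), and genes that host or flank a peak. RNA gene starts, Gmpr and the pathway genes with a peak within 50 kb were added after their values were seen. No test was run, since members were chosen with results known and 1 library gives no replicate. Intervals of shares are exact Clopper-Pearson 95% intervals, and those of medians come from binomial order statistics. Position functions were tested on simulated data. Python 3.11.15, numpy 2.4.6, scipy 1.17.1 and pandas 2.3.3 were used.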

Additional observations from a re-analysis of the deposited data

How the results depend on the processing

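The main limit is assignment. The count of 8 covered genes in the set was 5 when only host genes were counted and 3 within 10 kb of the TSS, by construction of those settings, and lay between 7 and 9 in the other 5 settings. Of the 70 other pathway genes, 10 had a peak. This was 5 with host genes alone (7.14%, against 5.65% of all protein-coding genes), 3 within 10 kb of the TSS (4.29%, against 3.8%), 1 at or above the upper quartile of the score (1.43%, against 2.54%) and 20 with any peak within 50 kb (28.6%, against 18.2%). The number of peaks of the set, their median score, promoter share and median distance stayed within 1.5 times or within their interval in every setting run. The median score was 153 at or above the median score of the list, and the median distance was 25.0 kb within 100 kb of the TSS. By construction a score filter cannot lower the former and a distance limit cannot raise the latter, so these settings are no check of those values. With RefSeq starts, an alternative added after seeing the data, the median distance was 35.9 kb, as with the deposited distances. The search for AP-1 motifs under the peaks, in the whole peak or around its centre, was not run, since no genome sequence was used here. No paired analysis was possible because only 1 library has values. Without read counts, what the sequencing depth limits cannot be stated, and absence of a peak means only that none passed the authors' threshold.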

Other observations

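Several pathway genes without an assigned peak had one close by that the file gives to a neighbour. Within 50 kb of the gene this applied to 12 of the 70 other pathway genes (17.1%), against 2236 of the 21887 protein-coding genes (10.2%), with no test of the difference. The highest was at Smad6, the second inhibitory SMAD gene, where a peak of score 272 (rank 39) lay 28.4 kb from the gene, in an intron of 1110036E04Rik, beside a peak of score 56. These peaks lay only 896 and 337 bp from the TSS of 1110036E04Rik. The score of 272 is above those of all peaks assigned to the SMAD genes. Bmpr1a, a BMP type I receptor gene, had a peak of score 163 (rank 177) 47.0 kb away that was nearest to Fam25c. Ski, a corepressor of SMADs, had one of score 139 (rank 285) 23.6 kb away inside Morn1. Tgfb1 had peaks of score 53 and 60 at 5.83 and 6.62 kb, the first in the promoter class of B9d2 and the other in an exon of Ccdc97. Inha, the inhibin alpha chain gene, had 1 of score 51 at 38.8 kb, inside Slc4a3. Rhoa, a small GTPase gene, had 1 of score 58 at 1.62 kb, inside Gpx1 and 652 bp from the TSS of Gpx1. The same peaks can serve more than 1 gene, so these are positions and not assignments.

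Lying inside a gene other than the nearest one was more common for the peaks of the 10 genes than in the list as a whole, at 8 of 19 (42.1%, exact 95% interval 20.3 to 66.5%) against 306 of 2374 (12.9%). The 8 peaks all lay in Dlgap1, Col15a1, Smad3 or Upp2, several to a gene, so they are not independent and the interval covers counting error only. The difference was not tested. Of the 8, 2 entered the set through the host gene alone, which by that rule places them in a gene other than the nearest.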
